A study of Mus musculus with 6 samples.

Results

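Neutrophil granule proteins of the secondary and tertiary granules were followed through 8 genes: Fcnb, Chil3, Ltf, Cd177, Pglyrp1, Olfm4, Mmp8 and Mmp9. They were chosen by symbol, and all 8 were found in each of the 3 deposited matrices, which hold 5301 features between them. Neutrophils make their granules in a fixed order as they mature in the marrow. Azurophil granules form in promyelocytes, secondary (specific) granules in myelocytes and metamyelocytes, and tertiary (gelatinase) granules in late precursors and band cells. A granule protein is stored in the granule type that forms while its messenger RNA is present, so the time at which each gene is transcribed sets where its product goes. Ltf encodes lactoferrin, an iron-binding protein and the classical mark of secondary granules. Pglyrp1 encodes a peptidoglycan recognition protein, Cd177 a surface glycoprotein also held in granule membranes, and Olfm4 olfactomedin 4. Fcnb encodes ficolin B, a lectin that recognises microbial sugars, and Chil3 encodes Ym1, a chitinase-like lectin. Mmp8 encodes neutrophil collagenase, and Mmp9 gelatinase B, the enzyme that gives tertiary granules their other name.

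Immune cells (CD45+) had been sorted from pieces of liver and profiled by single-cell RNA-seq. The Balb/c mice had received 4TO7 mouse mammary tumour cells (also written 4T07) by intracardiac injection. The injected cells carried a control vector (Ctrl) or an shRNA against Tim3 (Tim3-KD), so the knockdown was in the tumour cells and not in the sorted cells, and its target was not checked in these libraries. With each kind of injected cell there was 1 library of tumour-free adjacent tissue (AT) and 1 of micrometastasis, both from day 3, and 1 of macrometastasis from day 12. Each of the 6 libraries was a pool of 2 mice and stands alone in its group, so no test between groups was made: none is possible within a site, and a fit over the sites, with site as a block, was not run. All intervals are 95% intervals that cover counting error only, and not the differences between mice or between cells.

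There were 23008 cells with 7086531 to 79971799 unique molecular identifiers (UMIs, each a counted RNA molecule) per library and a median of 6300 to 10248 UMIs per cell. Cell barcodes were little shared, with 0 to 11 in common between any pair of libraries. Neutrophil stages were taken from clusters made without the 8 genes and named from other markers. Elane, Mpo and Prtn3 were among the leading genes of promyelocyte-like cells, and Cebpe and Mki67 of myelocyte-like cells. Ly6g, Ifitm6 and Anxa1 were among those of metamyelocyte-like cells, and Csf3r, Il1r2 or Stfa2l1 among those of mature-like cells. Csf3r was not on a list used for naming. The metamyelocyte name rests on exactly 3 detected markers. Where a stage ends depends in part on the random start of the clustering, so beside the results that turn on it the range over the other settings is given. Neutrophil-like cells of all stages numbered 914 in AT Ctrl, 2015 in micrometastasis Ctrl, 3061 in micrometastasis Tim3-KD, 1771 in macrometastasis Ctrl and 2285 in macrometastasis Tim3-KD. The AT Tim3-KD library stood apart with 19 such cells of 542, all mature-like, so neutrophils were not compared between Tim3-KD and Ctrl in adjacent tissue. In those 19 cells Fcnb, Chil3 and Ltf had no UMI, and Mmp9 stood at 763 and Pglyrp1 at 966 UMIs per 1000000 UMIs of the same cells (CPM), the level used throughout.

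In the mouse genome (GRCm38) the 8 genes lie on 5 chromosomes. Fcnb is at chr2:28076378-28084885 and Mmp9 at chr2:164940780-164955850, Chil3 at chr3:106147554-106167564, Pglyrp1 at chr7:18871331-18890459 and Cd177 at chr7:24743983-24760311, Mmp8 at chr9:7558456-7568485 and Ltf at chr9:111019271-111042767, and Olfm4 at chr14:79984081-80023139. Fcnb, Chil3 and Cd177 are on the minus strand and the other 5 on the plus strand.

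Upstream sequence was available from RefSeq (GRCm38.p6) for 7 of the 8 genes as the 250 bases before the RefSeq transcript start. That start can differ from the gene bounds given above, so the Fcnb and Ltf regions lie partly within those bounds. Motif positions are counted from the RefSeq start. It is shown for 3 genes, 1 for each stage at which a group of the 8 was highest: Fcnb, at chr2:28084879-28085128 on the minus strand, Ltf, at chr9:111019042-111019291 on the plus strand, and Mmp8, at chr9:7558179-7558428 on the plus strand. Capitals mark letters that match, on either strand, TTNNGCAA (a C/EBP-type motif) or GAGGAA (an Ets-type motif, of which PU.1 is a member), and no marked motif overlaps another.
Fcnb: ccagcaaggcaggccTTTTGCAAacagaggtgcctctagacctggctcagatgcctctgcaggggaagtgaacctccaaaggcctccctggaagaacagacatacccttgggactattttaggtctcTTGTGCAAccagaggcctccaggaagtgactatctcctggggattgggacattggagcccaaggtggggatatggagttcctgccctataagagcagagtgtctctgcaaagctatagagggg
Ltf: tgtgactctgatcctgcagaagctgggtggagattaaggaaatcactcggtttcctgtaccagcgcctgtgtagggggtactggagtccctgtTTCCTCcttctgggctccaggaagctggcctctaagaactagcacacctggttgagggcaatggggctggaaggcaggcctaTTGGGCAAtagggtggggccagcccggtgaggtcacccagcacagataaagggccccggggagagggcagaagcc
Mmp8: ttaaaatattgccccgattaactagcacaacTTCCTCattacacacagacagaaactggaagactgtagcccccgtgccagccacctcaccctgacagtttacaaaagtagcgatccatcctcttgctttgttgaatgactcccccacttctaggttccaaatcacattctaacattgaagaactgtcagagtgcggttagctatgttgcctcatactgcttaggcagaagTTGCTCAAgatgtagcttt

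Fcnb held TTNNGCAA at -235 to -228 and at -123 to -116 counted from its start, Ltf at -75 to -68, and Mmp8 in reverse at -19 to -12. GAGGAA lay in reverse at -157 to -152 in Ltf and at -219 to -214 in Mmp8. Of the 7 upstream regions, 3 held TTNNGCAA, against 9.57% of 32841 promoters of the same length, and 5 held GAGGAA, against 23.3%. The Runx-type letters TGTGGT were in 0 of the 7 and in 14.0% of all promoters, and the TATA box letters TATAAA in 1, that of Cd177 at -40 to -35, and in 12.4% of all. These matches describe the letters of the regions, and no binding was measured.

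The 8 genes were highest (by CPM) at 3 stages. Fcnb was highest in myelocyte-like cells in 5 of 5 libraries. Chil3 was highest there in 3 of 5 and in metamyelocyte-like cells in the other 2, both of macrometastasis. Ltf, Cd177, Pglyrp1 and Olfm4 were highest in metamyelocyte-like cells, and Mmp8 and Mmp9 in mature-like cells, each in 5 of 5. With each cell given equal weight, or with finer clusters, neither Mmp8 nor Mmp9 was highest in mature-like cells in every library. Under another random start fewer genes were highest in metamyelocyte-like cells in every library. The stages differ in RNA content, with a median of 31122.5 to 45327.5 UMIs in myelocyte-like and 4910.5 to 5795 in mature-like cells, so CPM gives a gene's share of a cell's RNA and not its number of molecules. Counted as UMIs per cell, Cd177, Chil3, Fcnb and Pglyrp1 were highest in myelocyte-like cells in 5 of 5 libraries and Ltf in 4 of 5, and Mmp9 and Olfm4 were highest in metamyelocyte-like cells in 5 of 5. Mmp8 counted in this way was highest in metamyelocyte-like cells in 3 of 5 libraries, at 14.2 UMIs per cell against 3.79 in mature-like cells in AT Ctrl, and in mature-like cells in the other 2.

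**Figure D1:**
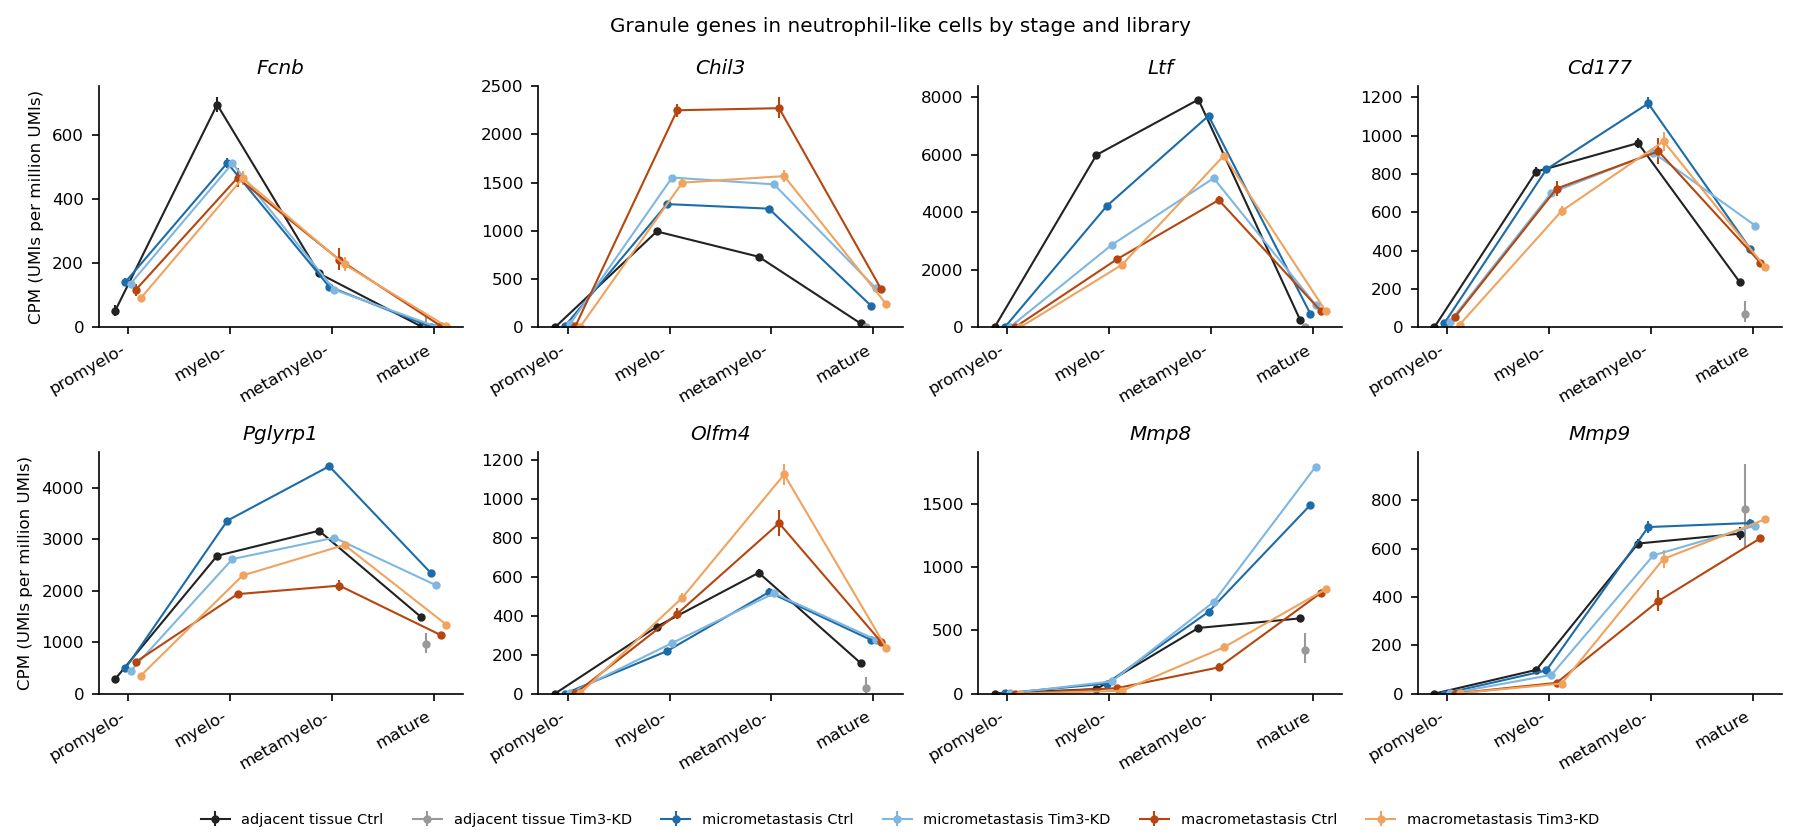
Level of each of the 8 genes (CPM, linear axis from 0) by neutrophil stage, with 1 line for each library that has at least 10 cells in the stage; bars are 95% counting intervals. Fcnb peaks in myelocyte-like cells, at 464 to 693 CPM, Ltf in metamyelocyte-like cells, at 4428 to 7921, and Mmp8 in mature-like cells, at 596 to 1795.

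Among neutrophils, Fcnb was mostly limited to the precursors. In myelocyte-like cells it stood at 693 CPM in AT Ctrl, 512 in micrometastasis Ctrl, 511 in micrometastasis Tim3-KD, 466 in macrometastasis Ctrl and 464 in macrometastasis Tim3-KD. Metamyelocyte-like cells held 168, 127, 117, 210.4 and 196 CPM in the same order of libraries, and mature-like cells 3.37, 1.23, 2.33, 3.34 and 3.28. Every myelocyte value lay above every metamyelocyte value, and every metamyelocyte value above every mature value. Promyelocyte-like cells already carried it, at 141 CPM in micrometastasis Ctrl, 136 in micrometastasis Tim3-KD and 90.6 in macrometastasis Tim3-KD, the 3 libraries with at least 30 of these cells. With each cell thinned to 1500 UMIs so that depth was equal, 35.8 to 49.2% of myelocyte-like cells had a Fcnb UMI, against 0 to 0.714% of mature-like cells.

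Chil3 was high over both precursor stages and lasted longer. Myelocyte-like cells held 994 CPM in AT Ctrl, 1277 in micrometastasis Ctrl, 1553 in micrometastasis Tim3-KD, 2249.6 in macrometastasis Ctrl and 1499.5 in macrometastasis Tim3-KD. Metamyelocyte-like cells held 732, 1230.2, 1482, 2271 and 1567 CPM in the same order. The difference between these stages was 1.36-fold in AT Ctrl and 1.01-fold to 1.05-fold in the other 4 libraries. Mature-like cells ran from 40.7 CPM in AT Ctrl to 227, 405, 399 and 243 in the other 4 libraries, and AT Ctrl was the low one. In AT Ctrl 1 cell held 56 of 145 Chil3 UMIs of the mature-like cells, and the level without it was 25.2 CPM. Chil3 has a near-identical neighbour, Chil4, so reads shared by the pair leave its counts uncertain.

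Ltf reached the highest levels of the 8, at 7921, 7356, 5188, 4428 and 5974 CPM in metamyelocyte-like cells of AT Ctrl, micrometastasis Ctrl, micrometastasis Tim3-KD, macrometastasis Ctrl and macrometastasis Tim3-KD. Because this chemistry counts one end of each molecule, these levels were not divided by gene length. Myelocyte-like cells held 5995, 4216, 2869, 2367 and 2176 CPM, and mature-like cells 249, 464, 784, 575 and 564. A few mature-like cells carried much of that level, and in AT Ctrl 1 cell held 441 of 888 UMIs, with 126 CPM left without it. Promyelocyte-like cells held 0.533 to 6.65 CPM in the libraries with at least 30 of them, so the gene went from near 0 to at least 2176 CPM over 1 stage. After thinning, 78.3 to 94.7% of metamyelocyte-like cells and 7.94 to 10.9% of mature-like cells had an Ltf UMI. B-like cells, which should lack it, had 0 to 6.56%, the upper end in AT Ctrl, so in AT Ctrl the share of 10.0% in mature-like cells lay close to the free RNA level.

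Cd177 and Pglyrp1 varied less over the later stages. Cd177 stood at 962, 1169, 912, 919 and 971 CPM in metamyelocyte-like cells and at 234, 411, 531, 338 and 313 CPM in mature-like cells. Pglyrp1 stood at 3162, 4414, 3028, 2097 and 2886 CPM in metamyelocyte-like cells and kept 1489, 2337, 2102, 1132 and 1338 CPM in mature-like cells. At equal depth 67.7 to 88.5% of mature-like cells still had a Pglyrp1 UMI, against 4.97 to 8.88% of B-like cells. Pglyrp1 was also the earliest of the 4 genes that were highest in metamyelocyte-like cells, with 491 CPM in promyelocyte-like cells of micrometastasis Ctrl, 436 in micrometastasis Tim3-KD and 347 in macrometastasis Tim3-KD.

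Olfm4 was found in the fewest metamyelocyte-like cells of the 8 in each of 5 libraries. Its metamyelocyte levels were 619.8, 520.2, 514, 874 and 1124 CPM, below or near those of Cd177, but with all UMIs counted only 26.0, 17.3, 25, 36.8 and 31.5% of metamyelocyte-like cells had any. Cd177 was found in 97.4 to 100% of the same cells and Fcnb, the next lowest in 4 of 5 libraries, in 31.9 to 63.2%, with a median of 4 to 6 UMIs where it was found. The metamyelocyte-like cells with Olfm4 had many molecules of it, with a median of 45 UMIs in AT Ctrl, 53 in micrometastasis Ctrl, 14 in micrometastasis Tim3-KD, 36 in macrometastasis Ctrl and 79 in macrometastasis Tim3-KD. So its level came from a minority of cells, most of which held much of it. With each cell thinned to 1500 UMIs, 8.96 to 20.2% of myelocyte-like, 15.5 to 28.9% of metamyelocyte-like and 8.39 to 15.05% of mature-like cells had an Olfm4 UMI, against 0 to 0.386% of B-like cells. Unthinned, the shares were 15.6 to 26.4% of myelocyte-like and 17.5 to 25.1% of mature-like cells, against 0 to 0.772% of B-like cells, whose median total was 3484 to 5144 UMIs against 4910.5 to 5795 in mature-like cells. Mature-like cells had a median of only 3 to 4 Olfm4 UMIs where they had any.

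The cells with Olfm4 had the higher median total in 4 of 5 libraries, at 27955 UMIs against 22282 without it in AT Ctrl, 17404 against 13367 in micrometastasis Tim3-KD, 21891 against 17940.0 in macrometastasis Ctrl and 21991 against 18998.5 in macrometastasis Tim3-KD. Micrometastasis Ctrl went the other way, at 16040.0 against 17541. The part of depth in the share of cells with Olfm4 was not tested. In metamyelocyte-like cells of AT Ctrl the Ltf level of cells with Olfm4 over cells without it was 1.03 (1.01 to 1.05) and in micrometastasis Ctrl 0.810 (0.787 to 0.835). Over the 35 ratios of the 7 genes in 5 libraries the range was 0.615 to 1.58, both ends in the 38 cells of macrometastasis Ctrl, with 0 at 2-fold in either direction. Mmp9 was at 0.639 (0.546 to 0.744) in macrometastasis Tim3-KD, 0.765 (0.691 to 0.845) in micrometastasis Ctrl and 1.58 (1.24 to 2.00) in macrometastasis Ctrl.

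By CPM, Mmp8 and Mmp9 came last. Mmp8 stood at 36.6, 80.3, 97.2, 43.8 and 23.1 CPM in myelocyte-like cells, at 519.8, 648, 725, 208 and 367 in metamyelocyte-like cells and at 596, 1493, 1795, 796 and 826 in mature-like cells. The step from metamyelocyte-like to mature-like cells was smallest in AT Ctrl, at 1.15-fold, and largest in macrometastasis Ctrl, at 3.83-fold. Mmp9 stood at 621, 689, 572, 383 and 558 CPM in metamyelocyte-like and 662, 706, 695, 643 and 722 CPM in mature-like cells. In AT Ctrl and micrometastasis Ctrl the counting intervals of these last 2 stages overlapped, and when each cell was given equal weight Mmp9 was higher in metamyelocyte-like cells in 4 of 5 libraries, at 6.94 against 5.68 UMIs per 10000 in AT Ctrl. In mature-like cells Mmp9 also varied least of the 8 between libraries, with 50.1 to 55.0% of them having a UMI at equal depth.

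Within the metamyelocyte-like cells the early and late genes separated further. A finer clustering, examined after the data were seen, split most of them into a pair of clusters. In the cluster led by Ly6g and Anxa1 Fcnb stood at 199.7 to 349 CPM and Mmp8 at 118 to 214 over the 5 libraries, which had 31 to 115 of these cells. In the cluster led by Ly6g and Prok2 Fcnb stood at 3.27 to 13.9 CPM and Mmp8 at 1055 to 1473 over the 4 libraries with 30 to 200 of them. The same was seen cell by cell after thinning. Fcnb and Mmp8 were detected together in 2.74% of metamyelocyte-like cells in AT Ctrl, where the product of their shares was 5.28%, and in 2.21% in micrometastasis Ctrl, against 5.87%. Mmp8 and Mmp9 were found together in 39.3% in AT Ctrl, against a product of 32.8%, and in 42.4% in micrometastasis Ctrl, against 34.6%. In the other 3 libraries these pairs lay on the same sides of their products. Cells with both Fcnb and Mmp8 were few, at 6 of 219 in AT Ctrl and 6 of 271 in micrometastasis Ctrl. They were 14 of 540 in micrometastasis Tim3-KD, 2 of 38 in macrometastasis Ctrl and 1 of 73 in macrometastasis Tim3-KD.

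Other genes of the same processes, in lists set by name, were placed along the same stages. Of 12 further granule genes measured in at least 1 matrix, 7 were highest in metamyelocyte-like cells in every library that held them, among them Ngp, Lcn2 and Mmp25, 3 (Chil1, Slc11a1 and Adam8) in mature-like cells, and Hpse in myelocyte-like cells. Of 10 genes on the list called azurophil here, not all of which encode granule proteins, 8 (such as Elane and Mpo) were highest in promyelocyte-like cells. This held in the 3 libraries with at least 30 of these cells. Serpinb1a of the same list was highest in myelocyte-like cells in 5 of 5. All 7 surface receptor genes, such as Cxcr2 and Csf3r, were highest in mature-like cells in every library that held them. Among 9 transcription factor genes Cebpe, a factor needed for secondary granules, was highest in myelocyte-like cells in 5 of 5 libraries, as Fcnb was, and Cebpd in mature-like cells in 5 of 5. Several of these genes, among them Elane, Cebpe, Cxcr2 and Serpinb1a, were also on the lists that named the stages, so their place is no independent result.

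By likeness of level over 17 sums of stage and library, taken as Pearson's r of log2 levels and as a description only, Fcnb was closest to Hmgn2 (r = 0.99), Ccnb2 (r = 0.97) and Cebpe (r = 0.96). Ltf was closest to Anxa1 (r = 0.99), Cd177 and Syne1 (both r = 0.98), and Chil3 to Syne1, Anxa1 and Ltf (all r = 0.94). Pglyrp1 was closest to Cd177 (r = 0.97) and Olfm4 to AA467197 (r = 0.97). Mmp8 was closest to Pdlim7 and Cfp (both r = 0.98), and Mmp9 to Slfn1 (r = 0.99) and Cfp (r = 0.98). These points share libraries and stages.

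The first comparison asked whether the granule genes differed between neutrophils of Tim3-KD and Ctrl micrometastasis. Over all neutrophil-like cells 0 of 8 differed by 2-fold with an interval that left out 1, where 8.18% of 2579 genes did. Here and below, all genes means those held by the matrix or matrices compared, with at least 10 UMIs over both libraries. The micrometastasis matrix holds 2669 features, the macrometastasis matrix 2643 and the adjacent-tissue matrix 4486, so the shares are not transcriptome-wide. The paper describes picking highly variable genes, and the part of that in the shares was not tested. Chil3 was at 1.38 (1.36 to 1.40) times its Ctrl level and Fcnb at 1.25 (1.21 to 1.29), while Ltf was at 0.792 (0.785 to 0.800), Pglyrp1 at 0.764 (0.757 to 0.771) and Mmp9 at 0.693 (0.677 to 0.710). The median log2 ratio of the 8 was -0.21 and that of all genes -0.18. Of the lists, 0 of 10 azurophil genes and 0 of 4 other granule genes passed 2-fold, with median log2 ratios of 0.61 and -0.30, and 3 of 7 surface receptor genes were lower, with a median of -0.79. The make-up of the neutrophils differed too, with 608 myelocyte-like and 298 promyelocyte-like cells of 3061 in Tim3-KD against 212 and 71 of 2015 in Ctrl, so ratios within a stage were taken.

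Within stages of micrometastasis, Ltf and Pglyrp1 were below Ctrl in the precursors. Ltf was at 0.681 (0.671 to 0.690) in myelocyte-like and 0.705 (0.696 to 0.715) in metamyelocyte-like cells, and Pglyrp1 at 0.778 (0.767 to 0.790) and 0.686 (0.674 to 0.698). Over the other settings Pglyrp1 stayed below 1 in both stages and Ltf in metamyelocyte-like cells, and Ltf in myelocyte-like cells ran from 0.578 to 1.06, the last with finer clusters. Chil3 was above Ctrl in the 3 later stages under every setting, at 1.22 (1.19 to 1.24), 1.205 (1.17 to 1.24) and, in mature-like cells, 1.79 (1.70 to 1.88). Fcnb was at 0.962 (0.873 to 1.06) in promyelocyte-like, 0.998 (0.962 to 1.03) in myelocyte-like and 0.926 (0.838 to 1.02) in metamyelocyte-like cells. In mature-like cells it was at 1.89 (0.958 to 3.95), on 30 against 13 UMIs. Each interval took in 1, beside 1.25 over all neutrophil-like cells. Members past 2-fold numbered 0 of 8 in myelocyte-like cells, where 5.92% of genes passed, 0 of 8 in metamyelocyte-like cells, where 8.78% did, and 0 of 8 in mature-like cells, where 7.40% did.

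Promyelocyte-like cells of micrometastasis had 3 of 8 members past 2-fold in Tim3-KD, where 5.82% of genes passed. Chil3 was at 2.33 (1.80 to 3.08), from 16.3 to 38.0 CPM, Ltf at 2.65 (1.37 to 5.75) and Olfm4 at 3.86 (1.21 to 19.6). All 3 stood at low levels here, and their ratios over the other settings ran down to 1.27, 1.01 and 1.32, so none of the 3 calls held under every setting. In Tim3-KD 1 cell held 51 of 78 Ltf UMIs, and without the cell with the most UMIs of the gene in each library Ltf was at 1.30 and Chil3 at 3.57.

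Mature-like cells of micrometastasis belonged mainly to a pair of clusters, and Ltf differed between them. Over all mature-like cells Ltf stood at 1.69 (1.63 to 1.75) times its Ctrl level. In the cluster led by Steap4 and Acod1, with 697 Ctrl and 485 Tim3-KD cells, it was at 0.769 (0.574 to 1.02) (0.535 without the highest cell of each library), and in that led by Prok2 and stefin genes such as Cstdc4, with 755 and 1124 cells, at 1.37 (1.33 to 1.42). The Prok2-led cluster held more Ltf in both libraries, at 702 and 965 CPM against 38.6 and 29.7, and it made up more of the Tim3-KD cells. With clusters made with the 8 genes the ratio over mature-like cells was 0.997. Mmp8 was at 1.66 (1.59 to 1.73) in the Steap4-led and 1.03 (1.01 to 1.06) in the Prok2-led cluster. Chil3 kept its side in both clusters, at 1.62 (1.43 to 1.82) and 1.61 (1.53 to 1.70).

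**Figure D2:**
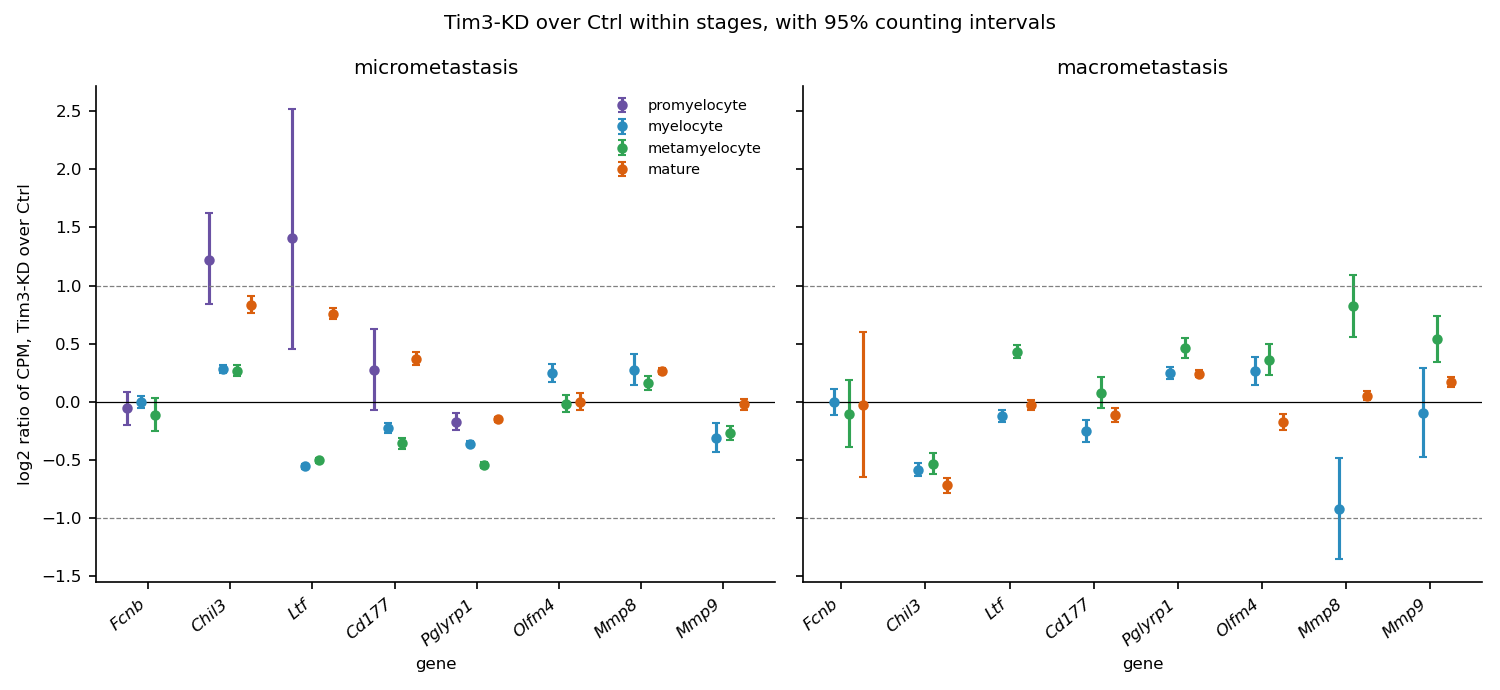
Level in Tim3-KD over Ctrl (log2 ratio) for each of the 8 genes within each neutrophil stage at micrometastasis and at macrometastasis, for ratios with at least 50 UMIs over both libraries; bars are 95% counting intervals and dashed lines mark 2-fold. Chil3 lies above 0 at micrometastasis and below 0 at macrometastasis in myelocyte-like, metamyelocyte-like and mature-like cells.

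In macrometastasis, Tim3-KD over Ctrl, 0 of 8 passed 2-fold over all neutrophil-like cells, where 10.2% of 2511 genes did, and the median log2 ratio of the 8 was -0.11 beside -0.16 for all genes. Fcnb was at 1.35 (1.27 to 1.45) and Chil3 at 0.692 (0.674 to 0.710). Of 10 azurophil genes 8 were higher by 2-fold, with a median log2 ratio of 1.29, while 0 of 10 other granule genes passed, with a median of -0.06. Promyelocyte-like cells numbered 95 of 2285 neutrophils in Tim3-KD against 29 of 1771 in Ctrl, and the part of that share in the ratios was not tested.

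Within stages of macrometastasis the counts were small, with 53 and 104 myelocyte-like and 38 and 73 metamyelocyte-like cells in Ctrl and Tim3-KD. Chil3 was below Ctrl in the 3 stages compared, at 0.667 (0.641 to 0.693), 0.690 (0.648 to 0.735) and, in mature-like cells, 0.607 (0.582 to 0.634). The myelocyte ratio was 1.09 under 1 other random start, which took in 511 myelocyte-like cells over the libraries against 1101. Pglyrp1 was above Ctrl under every setting in these stages, at 1.19 (1.14 to 1.23), 1.38 (1.30 to 1.46) and 1.18 (1.16 to 1.21). Fcnb was at 0.997 (0.921 to 1.08), 0.931 (0.765 to 1.14) and 0.982 (0.637 to 1.52) in the same stages. Its 1.35 over all neutrophil-like cells was thus not seen within them. In metamyelocyte-like cells Mmp8 was at 1.77 (1.48 to 2.12), Ltf at 1.35 (1.30 to 1.40) and Mmp9 at 1.45 (1.27 to 1.67), and in myelocyte-like cells Mmp8 was at 0.528 (0.391 to 0.714). The metamyelocyte-like cells came from different fine clusters, with 31 of 38 Ctrl and 36 of 73 Tim3-KD cells in that led by Ly6g and Anxa1 and 3 and 30 in that led by Ly6g and Prok2. Within the Anxa1-led cluster Mmp8 was at 0.763 (0.572 to 1.02) and Mmp9 at 1.01 (0.832 to 1.23), while Ltf was at 1.40 (1.34 to 1.46), Pglyrp1 at 1.35 (1.27 to 1.45) and Chil3 at 0.804 (0.752 to 0.860). In these 3 stages 0 of 8 members passed 2-fold, where 10.0% of genes passed in myelocyte-like, 11.0% in metamyelocyte-like and 5.94% in mature-like cells.

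The Chil3 ratio of mature-like macrometastasis cells was not that of each cluster. In the cluster led by Bcl2l15 and Arrdc4, with 1401 Ctrl and 1001 Tim3-KD cells, it was 0.998 (0.952 to 1.05), in the Steap4-led cluster, with 219 and 827 cells, 1.499 (1.16 to 1.96), and in the Prok2-led cluster, with 31 and 185 cells, 0.308 (0.261 to 0.364). Ltf in the Steap4-led cluster was at 6.35 (4.41 to 9.48), from 18.4 to 117 CPM, beside 0.981 (0.951 to 1.01) over all mature-like cells. In Tim3-KD 1 cell held 304 of 759 of those Ltf UMIs, and without the highest cell of each library the ratio was 5.43. Myelocyte-like cells also differed in histone transcripts, with 15 histone features together at 6646 CPM in macrometastasis Ctrl, 3499 in macrometastasis Tim3-KD, 3602 in micrometastasis Ctrl, 2716 in micrometastasis Tim3-KD and 2613 in AT Ctrl, and their part in the myelocyte ratios was not tested.

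The next comparison set micrometastasis against adjacent tissue of the Ctrl mice at day 3. Over all neutrophil-like cells Mmp8 was 2.09 (2.03 to 2.16) times its level in adjacent tissue, the 1 member of 8 past 2-fold, where 13.3% of 2132 genes passed, and Ltf was at 0.526 (0.521 to 0.531) and Fcnb at 0.618 (0.594 to 0.642). The trimmed mean log2 ratio of all genes held by both matrices, a mean without the outer values on each side, was 0.29. It is a baseline for the deposited genes only. Relative to it Mmp8 was at 1.71, no longer past 2-fold, and Ltf at 0.430. Metamyelocyte-like cells made up less of the micrometastasis neutrophils, with 271 cells of 2015 against 219 of 914, while promyelocyte-like cells made up more, with 71 against 11. Myelocyte-like cells were 212 against 124, or 10.5% against 13.6%, but 12.5% against 9.66% with finer clusters. Of 10 azurophil genes 6 were higher by 2-fold, and 0 of 4 other granule genes passed.

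In mature-like cells 3 of 8 members passed 2-fold between these sites, where 11.9% of genes did. Chil3 rose in micrometastasis from 40.7 to 227 CPM, to 5.57 (4.71 to 6.64) times its level in adjacent tissue. Mmp8 rose to 2.51 (2.40 to 2.62) times, from 596 to 1493 CPM. Both stayed past 2-fold under every other setting, with ranges of 4.42 to 8.82 and 2.05 to 3.38. Without the highest cell of each library Chil3 was at 8.77, since 1 cell held 56 of 145 UMIs in AT Ctrl, and Mmp8 at 2.55. At equal depth 32.5% of mature-like cells had an Mmp8 UMI in AT Ctrl and 71.4% in micrometastasis Ctrl, and 2.32 and 15.1% had a Chil3 UMI, with 0.386 and 0.770% of B-like cells.

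The clusters that held most of these cells were not the same at the sites, with 424 Steap4-led and 136 Prok2-led cells in AT Ctrl and 697 and 755 in micrometastasis Ctrl. In the Steap4-led cluster Chil3 was at 4.56 (3.51 to 6.01) and Mmp8 at 3.55 (3.27 to 3.86), and in the Prok2-led cluster Chil3 was at 4.81 (3.85 to 6.08) and Mmp8 at 1.67 (1.58 to 1.76). The same AT Ctrl cell held 56 of 81 Chil3 UMIs of the Prok2-led cluster, where the ratio without the highest cells was 14.8. Ltf was at 1.86 (1.73 to 2.00) over all mature-like cells, 0.404 (0.325 to 0.501) in the Steap4-led and 1.45 (1.34 to 1.57) in the Prok2-led cluster. Without the highest cells these were 3.46, 0.358 and 3.79, so the size of the Ltf ratio rests on 1 cell of AT Ctrl, and its direction differed between the clusters. Over all mature-like cells Cd177 was at 1.75 (1.63 to 1.89), Olfm4 at 1.76 (1.61 to 1.93) and Pglyrp1 at 1.57 (1.52 to 1.62). Olfm4 was at 0.788 (0.676 to 0.920) in the Steap4-led and 1.94 (1.71 to 2.21) in the Prok2-led cluster, so its direction differed between them too. Mmp9 over all mature-like cells was at 1.07 (1.02 to 1.12), beside its fellow metalloproteinase Mmp8. Fcnb was the third, lower at 0.367 (0.154 to 0.879), on levels of 3.37 and 1.23 CPM. The median log2 ratio of the 8 was 0.81, and that of all genes -0.15.

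In the precursors the same site difference was smaller for Chil3, at 1.29 (1.24 to 1.33) in myelocyte-like and 1.68 (1.62 to 1.75) in metamyelocyte-like cells. Mmp8 passed 2-fold in myelocyte-like cells, at 2.19 (1.87 to 2.58), from 36.6 to 80.3 CPM, the 1 member of 8 to do so, where 12.7% of genes passed. Relative to the trimmed mean it was at 1.81, and over the other settings it ran from 1.42 to 2.64. In metamyelocyte-like cells Mmp8 was at 1.25 (1.18 to 1.31) and 0 of 8 passed, where 11.1% did. Ltf was at 0.703 (0.693 to 0.714) in myelocyte-like and 0.929 (0.916 to 0.942) in metamyelocyte-like cells.

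**Figure D3:**
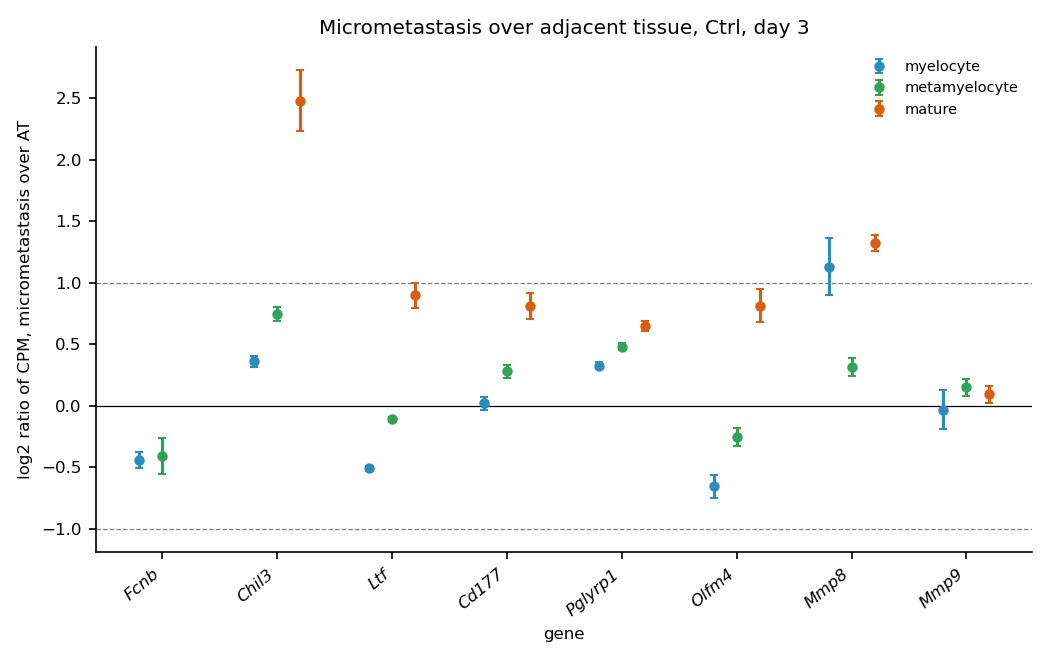
Level in micrometastasis Ctrl over AT Ctrl (log2 ratio) for each of the 8 genes in myelocyte-like, metamyelocyte-like and mature-like cells, for ratios with at least 50 UMIs over both libraries; bars are 95% counting intervals and dashed lines mark 2-fold. In mature-like cells the ratio of Chil3 is 5.57, that of Mmp8 2.51 and that of Mmp9 1.07.

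Macrometastasis at day 12 was set against micrometastasis at day 3, a comparison in which site and day cannot be told apart. It shares its libraries with the comparisons above. In Ctrl, over all neutrophil-like cells, Ltf was at 0.337 (0.331 to 0.343), Fcnb at 0.403 (0.379 to 0.429) and Pglyrp1 at 0.449 (0.442 to 0.456), 3 of 8 lower by 2-fold where 37.8% of 1699 genes passed in either direction and 6.24% were lower. The trimmed mean of all genes was 0.57 on the log2 scale, so against it these genes stood lower still, at 0.227, 0.271 and 0.302. In Tim3-KD, Fcnb was at 0.437 (0.419 to 0.455), Ltf at 0.470 (0.464 to 0.476) and Chil3 at 0.496 (0.486 to 0.506), where 35.3% of genes passed in either direction and 1.74% were lower. Of 10 azurophil genes 6 were lower in Ctrl and 1 in Tim3-KD.

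Precursors were fewer in macrometastasis. Myelocyte-like and metamyelocyte-like cells numbered 212 and 271 of 2015 neutrophils in micrometastasis Ctrl and 53 and 38 of 1771 in macrometastasis Ctrl, and 608 and 540 of 3061 and 104 and 73 of 2285 in Tim3-KD. The part of this in the ratios over all neutrophils was not tested.

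Within stages, Pglyrp1 and Mmp8 were lower in Ctrl macrometastasis. In metamyelocyte-like cells Pglyrp1 was at 0.475 (0.451 to 0.5002), past 2-fold under every setting, and Mmp8 at 0.321 (0.271 to 0.377), which became 0.758 with clusters made with the 8 genes, and 18.1% of genes passed. The Anxa1-led fine cluster held 31 of 38 of these cells in macrometastasis and 113 of 271 in micrometastasis, where 118 were Prok2-led. Within it Mmp8 was at 0.792 (0.632 to 0.985), Pglyrp1 at 0.488 (0.461 to 0.516) and Ltf at 0.493 (0.475 to 0.513). The share of all genes past 2-fold was taken for whole neutrophil stages and is not given for the clusters within them. In mature-like cells Pglyrp1 was at 0.484 (0.474 to 0.494) and Mmp8 at 0.533 (0.520 to 0.547), where 34.9% passed, and Fcnb passed too, at 2.71 (1.42 to 5.49), on levels of 1.23 and 3.34 CPM, but at 1.93 relative to the trimmed mean, no longer past 2-fold. Mmp9 was at 0.466 (0.370 to 0.580) in myelocyte-like cells, where 17.3% passed. Fcnb was at 0.909 (0.846 to 0.977) in myelocyte-like and 1.66 (1.39 to 1.98) in metamyelocyte-like cells. Its value of 0.403 over all neutrophil-like cells was thus not seen within these stages.

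In Tim3-KD, Mmp8 was the member lower at 3 stages, at 0.368 (0.126 to 0.886) in promyelocyte-like, 0.238 (0.191 to 0.293) in myelocyte-like and 0.460 (0.450 to 0.470) in mature-like cells, where 8.46, 8.89 and 27.5% of genes passed, and at 0.506 (0.463 to 0.552) in metamyelocyte-like cells. Olfm4 in metamyelocyte-like cells went the other way, at 2.18 (2.07 to 2.31), where 12.6% of genes passed, and at 1.68 (1.54 to 1.83) in Ctrl. Relative to the trimmed mean the Tim3-KD value was 1.90, so it passes 2-fold only before that shift is taken off. Olfm4 UMIs came from 23 of 73 metamyelocyte-like cells in macrometastasis and 135 of 540 in micrometastasis in Tim3-KD. In Ctrl they came from 14 of 38 and 47 of 271. The intervals count each UMI by itself and do not cover this spread between cells. Promyelocyte-like cells, compared between these sites in Tim3-KD only, were also lower in Chil3, at 0.201 (0.143 to 0.275), and Ltf, at 0.0801 (0.0162 to 0.243), both from low levels, and at 0.186 and 0.155 without the highest cells, with Mmp8 then at 0.226. Fcnb in Tim3-KD was at 0.667 (0.602 to 0.737) in promyelocyte-like and 0.909 (0.865 to 0.955) in myelocyte-like cells. It was at 1.67 (1.47 to 1.90) in metamyelocyte-like and 1.40 (0.874 to 2.29) in mature-like cells. Ltf stood at 5188 CPM in micrometastasis and 5974 in macrometastasis in metamyelocyte-like cells, and at 2869 and 2176 in myelocyte-like cells. So neither gene was lower at every stage.

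Mature-like cells of the sites came from different clusters. That led by Bcl2l15 and Arrdc4 held 1401 of 1651 mature-like cells in macrometastasis Ctrl and 9 of 1461 in micrometastasis Ctrl. In the Steap4-led cluster, present at both sites, Chil3 was at 0.323 (0.248 to 0.414) in Ctrl, although over all mature-like cells it stood at 1.76 (1.68 to 1.85). In Tim3-KD the same cluster had Chil3 at 0.299 (0.263 to 0.341), Mmp8 at 0.396 (0.380 to 0.413) and Ltf at 3.95 (3.11 to 5.08), while Ltf stood at 0.719 (0.699 to 0.740) over all mature-like cells. In Ctrl the Steap4-led cluster had Ltf at 0.478 (0.312 to 0.711), on 30 against 150 UMIs, the other side of 1. Without the highest cells the Tim3-KD value was 4.76 and the Ctrl value 0.469. In the Prok2-led cluster Ltf was at 2.99 (2.80 to 3.20) in Ctrl and 1.69 (1.62 to 1.75) in Tim3-KD.

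**Figure D4:**
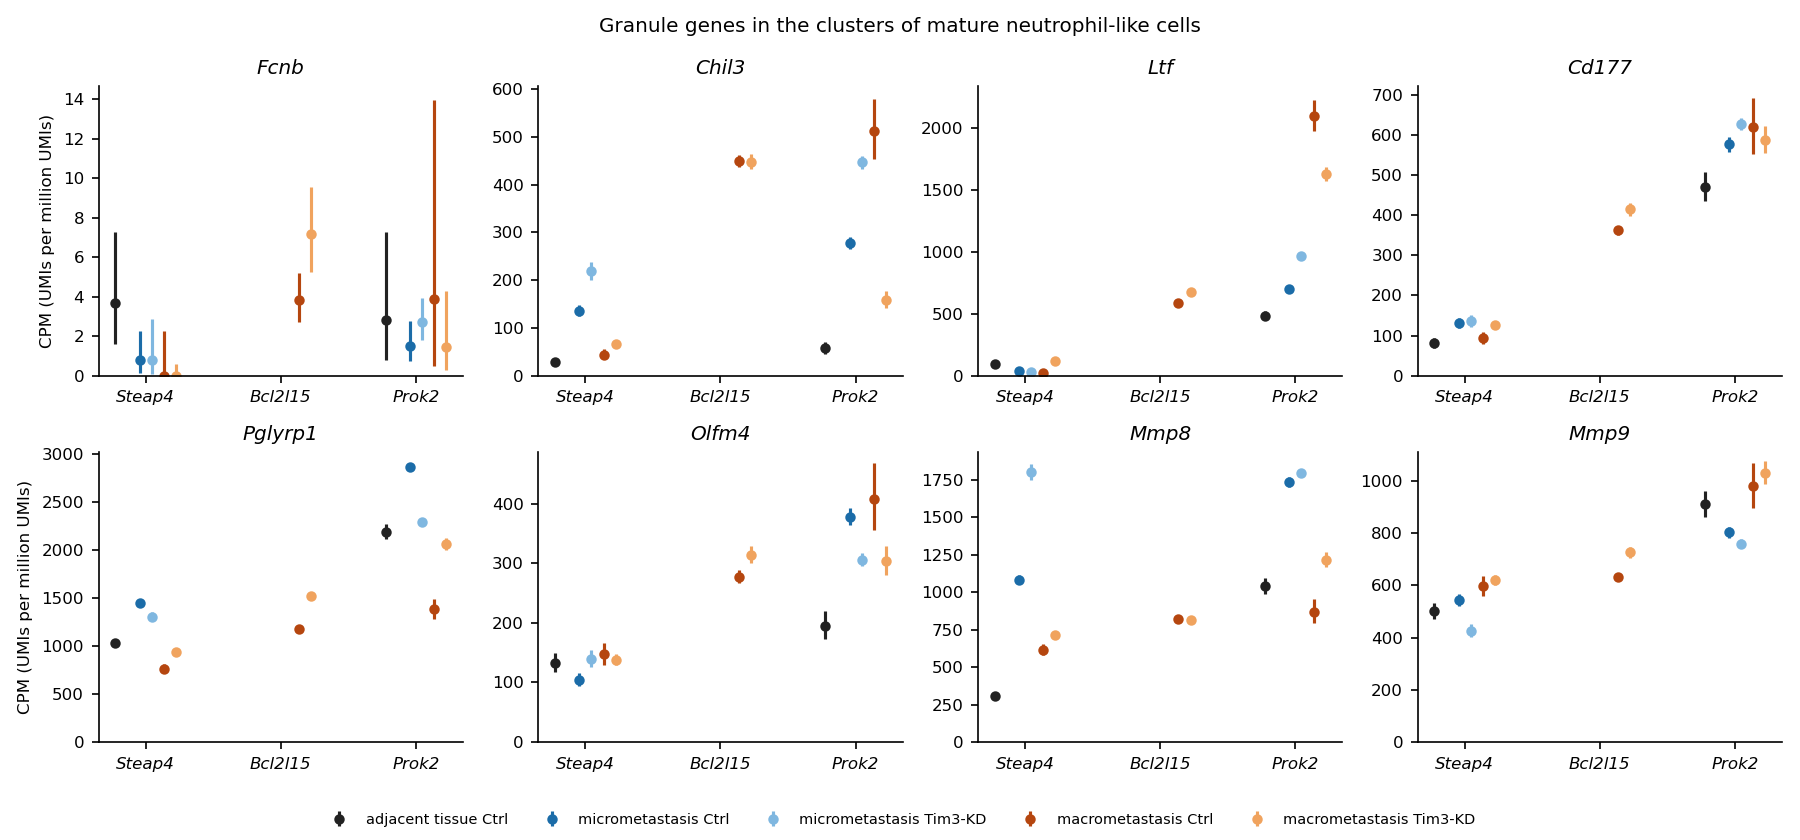
Level of each of the 8 genes (CPM, linear axis from 0) in the 3 clusters of mature-like neutrophils, for each library with at least 30 cells in the cluster; bars are 95% counting intervals. The Prok2-led cluster holds more Ltf and Cd177 than the Steap4-led cluster in each of the 5 libraries drawn.

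Outside neutrophils, Chil3 was also a monocyte gene. Monocyte-like cells held 205 CPM in AT Ctrl, 1636 in micrometastasis Ctrl, 3113 in micrometastasis Tim3-KD, 1385 in macrometastasis Ctrl and 1217 in macrometastasis Tim3-KD, with AT Ctrl far below the others. B-like cells held 1.47 to 5.99 CPM. Micrometastasis Ctrl over AT Ctrl was 7.99 (7.53 to 8.48), where 11.6% of genes passed 2-fold, and 5.70 in the cluster led by Ms4a4c and Thbs1 and 6.21 in that led by F13a1 and Ly6c1. Chil3 thus rose in both monocyte-like and mature-like cells of micrometastasis.

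Tim3-KD over Ctrl of Chil3 in micrometastasis was 1.90 (1.87 to 1.94) over all monocyte-like cells, but 3.02 (2.96 to 3.09) in the Thbs1-led cluster, where 11.8% of genes passed, and 2.66 (2.47 to 2.86) in the F13a1-led cluster, where 8.49% did. These clusters were examined after the data were seen. At macrometastasis Chil3 was at 0.878 (0.846 to 0.912) over all monocyte-like cells and at 3.24 (2.99 to 3.52) in the Thbs1-led cluster, where 11.8% of genes passed. Over 4 other random starts the macrometastasis value for all monocyte-like cells ran from 0.660 to 1.53, on both sides of 1, and that of micrometastasis from 1.37 to 1.52.

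Fcnb was also found in monocyte-like cells, at 33.6, 11.9, 32.0, 5.51 and 15.9 CPM in AT Ctrl, micrometastasis Ctrl, micrometastasis Tim3-KD, macrometastasis Ctrl and macrometastasis Tim3-KD. These levels lay above those of mature-like neutrophils in each library and above the 0 to 1.70 CPM of B-like cells. Tim3-KD over Ctrl was 2.701 (2.16 to 3.40) at micrometastasis, where 17.1% of genes passed 2-fold, and 2.89 (1.70 to 5.23) at macrometastasis, on 108 against 16 UMIs, where 22.8% did. Over 4 other random starts these ratios ran from 2.17 to 2.37 and from 2.21 to 3.29. Within the clusters of micrometastasis Fcnb was at 1.86 (1.31 to 2.64) in the Thbs1-led and 1.98 (1.40 to 2.86) in the F13a1-led cluster, neither past 2-fold. The F13a1-led cluster, which held more Fcnb in both libraries, had 246 of 731 monocyte-like cells in Tim3-KD and 70 of 712 in Ctrl. In the Thbs1-led cluster of macrometastasis it was at 2.60 (1.19 to 6.47), on 37 against 8 UMIs. Micrometastasis Ctrl over AT Ctrl was 0.352 (0.275 to 0.449), the opposite side of 1 from Chil3 in the same cells. Within clusters it was 0.609 (0.410 to 0.911) in the Thbs1-led and 0.410 (0.280 to 0.588) in the F13a1-led cluster. The F13a1-led cluster held 65 of 243 monocyte-like cells in AT Ctrl and 70 of 712 in micrometastasis Ctrl.

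Mmp8 was also present in monocyte-like cells at a lower level, at 121, 205, 323, 188 and 195 CPM in AT Ctrl, micrometastasis Ctrl, micrometastasis Tim3-KD, macrometastasis Ctrl and macrometastasis Tim3-KD. In the Thbs1-led cluster of micrometastasis it stood at 595 CPM in Tim3-KD and 228 in Ctrl, a ratio of 2.61 (2.45 to 2.78). Mmp8 in classes that should lack it was also higher in micrometastasis Tim3-KD, with 55.8 CPM in Kupffer-like and 27.0 in B-like cells against 4.43 and 2.87 in micrometastasis Ctrl, and 244 CPM in its 38 endothelial-like cells, and its part in the monocyte ratio was not tested.

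Pglyrp1 was also found in basophil-like or mast cell-like cells, at 437 CPM in micrometastasis Ctrl, 385 in micrometastasis Tim3-KD and 323 in macrometastasis Tim3-KD, against 30.4 to 52.7 CPM in B-like cells. NK-like or ILC1-like cells held 88.8 to 221 CPM of Pglyrp1. A cluster that was not named, led by Sdc4, Trem2 and Spp1, held Chil3 at 435 CPM in micrometastasis Ctrl and 1509.5 in micrometastasis Tim3-KD.

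**Figure D5:**
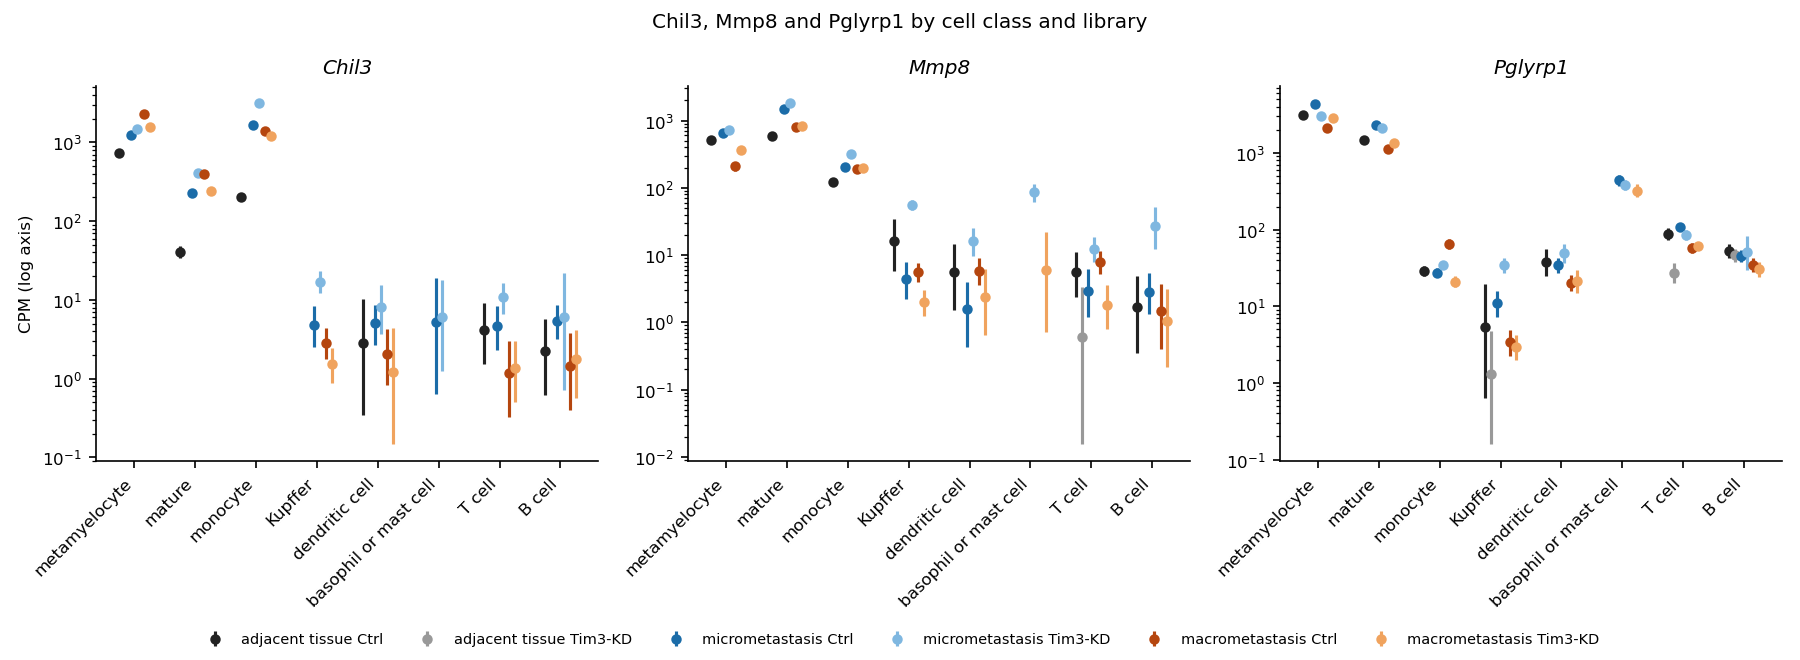
Level of Chil3, Mmp8 and Pglyrp1 (CPM, log axis) by cell class and library, for classes of at least 30 cells, with levels of 0 left out. Chil3 is high in monocyte-like as well as neutrophil-like cells, and Pglyrp1 stands at 323 to 437 CPM in basophil-like or mast cell-like cells, while B-like cells lie low.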

How the data were processed

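CD45+ cells of 6 liver libraries (10x 3' chemistry) had been aligned by the submitters to GRCm38 with STAR 2.7.7a after Trim Galore 0.4.3, per the labels. Per the deposited files, the authors' matrices hold scaled scores per site, capped at 10, with the total UMIs regressed out. These scores were turned back into UMI counts: 99.9973 to 99.9999% of recovered values were whole within 0.05, 0.144 to 0.160% were capped, and of the 8 genes only Fcnb was capped, in 5 macrometastasis cells. On simulated data (2000 cells, 1500 genes) 100% were recovered exactly.

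Doublets had been removed by the authors. Cells were clustered on 1634 shared genes without the 8 (30 principal components rounded to 4 decimals, 15 neighbours, Leiden resolution 1, 1 random start; leidenalg 0.10.2, scikit-learn 1.9.0, numpy 2.4.6), and clusters were named from marker lists. Levels are sums of UMIs per 1000000 UMIs (CPM) with exact Poisson intervals, and ratios have exact conditional intervals (scipy 1.17.1). Stages needed 30 cells in both libraries and genes 10 UMIs over both; a gene passed with a ratio of at least 2 or its inverse and an interval leaving out 1. Ratios relative to the trimmed mean take off the mean log2 ratio of all genes without the outer 30% on each side. All genes are those held by the matrices compared. Shares are of cells thinned to 1500 UMIs. Lists, members and the named genes (the 8, examples from 4 lists and the 3 nearest genes of each) were chosen with earlier results of these data known, and the split of cells by Olfm4 and the finer clusters after seeing these data. Alternatives tried were a mean over cells, ratios relative to the trimmed mean, clusters made with the 8, clusters at resolution 2, a minimum of 3000 UMIs per cell, a minimum of 50 UMIs, leaving out cells with a doublet score over 0.15 and, added after seeing the data, 4 other random starts and leaving out, gene by gene, the cell with the most UMIs of the gene in each library. Depth was 7086531 to 79971799 UMIs per library, and intervals cover counting error only.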

Additional observations from a re-analysis of the deposited data

Results flagged for a closer look

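Tim3-KD over Ctrl lay on opposite sides of 1 at micrometastasis and macrometastasis, with both counting intervals leaving out 1, in 12 of 32 pairs of gene and cell type measured at both sites. Over all genes in the same 4 cell types 8.34% of 5240 pairs did so. The 2 shares are not alike in precision, since the median was 6671.5 UMIs over both libraries for the 8 genes and 147 for all, and more UMIs give narrower intervals. In 10 of these the sides were also opposite relative to the trimmed mean of all genes. The difference between the sites was not tested, since each value compares 1 pool of mice with another.

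Chil3 was above Ctrl at micrometastasis and below it at macrometastasis in each of 4 cell types. The ratios were 1.22 and 0.667 in myelocyte-like, 1.205 and 0.690 in metamyelocyte-like, 1.79 and 0.607 in mature-like and 1.90 and 0.878 in monocyte-like cells. The macrometastasis values below 1 were not seen in every cluster or setting. In the 2 largest clusters of mature-like cells there Chil3 was at 0.998 and 1.499, in the Thbs1-led monocyte cluster at 3.24, and under 1 other random start at 1.09 in myelocyte-like cells and at 1.53 in monocyte-like cells under another. Mmp8 in myelocyte-like cells (1.21 and 0.528) and Cd177 in mature-like cells (1.29 and 0.926) lay the same way. Relative to the trimmed mean of all genes, Cd177 in mature-like cells and Chil3 in monocyte-like cells were above 1 at both sites. The Mmp8 value at micrometastasis was 0.859 without cells of high doublet score.

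Pglyrp1 lay the other way in each neutrophil stage compared, below Ctrl at micrometastasis and above it at macrometastasis, and kept both sides under every setting. Its ratios were 0.778 and 1.19 in myelocyte-like, 0.686 and 1.38 in metamyelocyte-like, and 0.900 and 1.18 in mature-like cells. In monocyte-like cells it was at 1.26 and 0.323, on levels of 20.9 to 64.7 CPM, which lie about the 30.4 to 52.7 CPM of B-like cells. Ltf (0.705 and 1.35) and Mmp9 (0.830 and 1.45) in metamyelocyte-like cells lay as Pglyrp1 did in neutrophils. Within the Anxa1-led fine cluster of macrometastasis, which held 31 of 38 Ctrl and 36 of 73 Tim3-KD cells of that stage, Ltf was at 1.40 (1.34 to 1.46) and Mmp9 at 1.01 (0.832 to 1.23), so the Mmp9 value above 1 was not seen there.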

How the results depend on the processing

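No paired analysis was run: each comparison sets 1 library against 1 and comes from no test. A fit with site as a block over the lesion libraries was possible, with 1 residual degree of freedom for neutrophils, and was not run. The limits are set by that and by small stages: 38 metamyelocyte-like cells in macrometastasis Ctrl and 19 neutrophils in AT Tim3-KD, so no Tim3-KD ratio of neutrophils was run in adjacent tissue, and stages under 30 cells were not compared under any setting. Of 136 ratios of a gene within a stage, 89 kept their side of 1 under 11 other settings. All 18 of them past 2-fold kept their side, and 8 stayed past 2-fold throughout. The 4 other random starts, added after seeing the data, gave 1061 to 1512 metamyelocyte-like and 511 to 1101 myelocyte-like cells beside 1141 and 1101.

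Median log2 ratios of the 8 genes over all neutrophil-like cells depended on the setting. Tim3-KD over Ctrl at micrometastasis was -0.21, and 0.014 as a mean over cells, -0.0237 relative to the trimmed mean, -0.28 with finer clusters and -0.28 without cells of high doublet score. At macrometastasis it was -0.11, and 0.020, 0.054, -0.20 and -0.17 in that order, and -0.16 with random start 3. Micrometastasis over adjacent tissue was -0.09, and 0.12 as a mean over cells, -0.38 relative to the trimmed mean and -0.25 with finer clusters. Macrometastasis over micrometastasis kept its direction, at -0.44 in Ctrl with -0.74, -1.01, -0.33 and -0.39 in the order above, and at -0.67 in Tim3-KD with -0.89, -1.35, -0.61 and -0.62.

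Within stages the median changed sign in these settings. Tim3-KD over Ctrl in micrometastasis myelocyte-like cells went from -0.12 to 0.32 with finer clusters and 0.016 with random start 5. In macrometastasis it went from -0.11 to 0.12 relative to the trimmed mean and 0.29 with random start 5 in myelocyte-like cells, and from -0.03 to 0.11 and 0.043 in mature-like cells. Micrometastasis over adjacent tissue went from -0.01 to 0.20 as a mean over cells and 0.15 with random start 5 in myelocyte-like cells, and from 0.22 to -0.049 with clusters made with the 8 in metamyelocyte-like cells. Macrometastasis over micrometastasis went from -0.09 to 0.046 as a mean over cells, 0.55 with finer clusters and 0.15 with random start 2 in Ctrl mature-like cells, and from 0.09 to -0.11 relative to the trimmed mean and -0.0172 with clusters made with the 8 in Tim3-KD metamyelocyte-like cells. The cause was not tested.

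Of members highest at 1 stage in every library, myelocyte-like cells had 1, which became 2 as a mean over cells, metamyelocyte-like cells 4, which became 2 with random start 5, and mature-like cells 2, which became 0 as a mean over cells, 0 with finer clusters and 1 with random start 2. The median share of metamyelocyte-like cells with a UMI was 59.9% thinned to 1500 UMIs, 75.4% thinned to 3000 and 88.2% unthinned.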
